A study of Mus musculus with 24 samples.

Results

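The control libraries of a mouse study of the retinal pigment epithelium (RPE) were compared between postnatal day 11 (P11) and postnatal day 29 (P29). They were chosen by the genotype and age in the sample labels, 4 libraries at P11 and 4 at P29, which makes 8 of the 24 libraries in all. The study as a whole set RPE cells with a floxed Ift20 gene against control cells at 3 ages, and the comparison of the controls alone asks which transcripts of RPE change over this interval. The controls were labelled Cre positive, and the series title has every animal positive for DCT-Cre, a recombinase driven from a gene of the melanin pathway, so the driver was shared by both ages and by the mutants. The Ift20 allele of the controls was not stated. All animals were on a mixed background, no treatment was given, sex was not collected, and the cells were described as isolated RPE. The labels call the 4 libraries of a group biological replicates but do not say whether each came from 1 animal or from a pool. Every library held transcripts of both sexes, given below, and so RNA of more than 1 animal. Whether the libraries of a group came from separate animals was not stated. The p-values below rest on the spread among these libraries, part of which may be technical.

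The RPE is a single layer of pigmented cells between the photoreceptors and the choroidal blood supply. It returns all-trans retinoids to the 11-cis chromophore used by rod and cone opsins, takes up shed outer segment tips, moves water, ions, lactate and glucose between the choroid and the retina, and secretes the membrane on which it rests. Melanosomes of RPE are made mainly around birth, while photoreceptor outer segments lengthen and the eyelids of mice open during the weeks after it.

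The library kit makes 1 tag, near the poly(A) end, of each transcript copied, so a count does not grow with transcript length. Levels are given as CPM, counts scaled to a common library total. Total gene counts were 1513440 to 2889946 at P11 and 2009047 to 2792369 at P29, with 13363 to 14057 and 13631 to 14021 genes counted, and 3 counts corresponded to 1.04 to 1.98 CPM and 1.07 to 1.49 CPM. Several measures of library composition separated the ages without overlap (exact two-sided permutation p = 0.0286, the smallest that 4 against 4 libraries can give, adjusted p = 0.0327 over 16 measures). Reads assigned to no feature went from 22.7% to 24.1% of reads at P11 to 20.7% to 21.9% at P29, reads with several alignments from 35.8% to 37.2% to 31% to 31.9%, and the 10 most abundant genes took 29.3% to 30.1% and 23% to 23.9% of counts. Much of the last difference lay in Gm42418, an unnamed gene model picked out after its values were seen, which held 16.8% of scaled counts at P11 and 8.50% at P29. The exact permutation p for the total count was 0.2. Since the use of strand in counting was not stated, values of genes with a 3′ end on another gene are uncertain. Among those named below, Acta1, Alas2, Aldh1l1, Atp1b1, B2m, Bmp4, Cacna1d, Car14, Ccnd1, Ccnd3, Cep290, Ciart, Col18a1, Col4a1, Col9a3, Cp, Cryba1, Csf1r, Cx3cr1, Dbp, Ermn, Ezr, Gas6, Gfap, Gm42418, Grn, Hsp90b1, Ift57, Kcnj13, Lrat, Meg3, Mt2, Myh1, Myoc, Nnat, Notch3, Opcml, Pmel, Ppp1r1b, Rac1, Rpl32, Slc16a8, Slc24a5, Slc6a9, Sod1, Sox4, Srebf1, Timp3, Tub, Uqcrc2 and mt-Co1 overlap a gene on the other strand. On the same strand, Csrnp1, Etfb, Igf2, Ramp2, Trf and mt-Nd1 do. Values of the alpha and beta globins, Hist1h3d, Ifit3, Crygd and the ribosomal proteins can also be shared with near-identical copies.

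The cells carried the RPE markers named for them at both ages. Of 12 markers, 11 passed the filter on low counts, and the summed level of the list was 21245 to 22184 CPM at P11 and 53963 to 55169 CPM at P29, or 2.18% to 2.29% and 5.38% to 5.53% of counts. Best1, a chloride channel of the basal RPE membrane, was the exception, with 0 to 1 counts per library at P11 and 0 to 18 at P29, and was not tested. Rod markers were also present, at 1.58% to 1.65% of counts at P11 and 1.44% to 1.5% at P29, and other cell types are described further on. Transcripts of both sexes were found in all 8 libraries: Xist and the Y-linked genes Ddx3y, Eif2s3y, Kdm5d and Uty had counts in each. Xist had 80.0 to 139.7 CPM at P11 and 137.8 to 153 CPM at P29. Ddx3y had 72.8 to 102 CPM at P11 and 152.65 to 182.5 CPM at P29. Each library thus held RNA of male and female animals.

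By the edgeR quasi-likelihood test of 12303 genes, 2026 (16.5%) were higher and 1917 (15.6%) were lower at P29 at an adjusted p under 0.05, 32% in all. These shares are the reference for every count of list members below. The 4 libraries of one age lay wholly above those of the other for 3398 genes, 27.6% of those tested. Large changes were more often falls: 185 genes rose and 688 fell by 4-fold or more, and 80 rose and 343 fell by 8-fold or more. The median log2 fold change over all tested genes was -0.022. Falls therefore reached further than rises on the plot of fold change against level. Members that are named below as the exceptions or the complete set of a count were picked out after their values were seen.

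**Figure D1:**
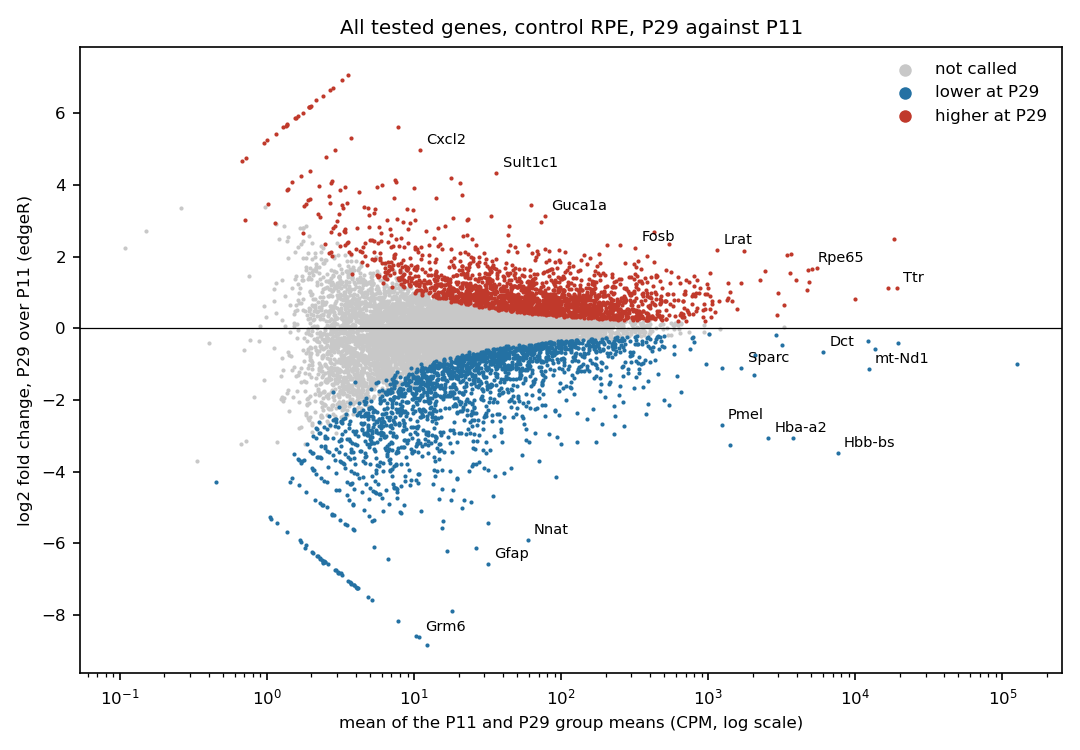
Each point is 1 of the 12303 tested genes, placed by the mean of its P11 and P29 group means (CPM, log axis) and its log2 fold change of P29 over P11 in control RPE, with genes called higher in red, called lower in blue and not called in grey. The 2026 higher and 1917 lower genes flank the grey band, and the globin genes, Pmel, Nnat, Gfap and Grm6 mark the lower side while Ttr, Rpe65 and Lrat mark the upper side.

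The genes of the smallest p were RPE genes that rose and globins that fell. Enpp2 encodes autotaxin, a secreted enzyme that makes lysophosphatidic acid, and had 1354, 1489.5, 1326 and 1462 CPM at P11 and 5907, 5944, 5727 and 6203 CPM at P29 (log2 fold change 2.08, SE 0.047, adjusted p = 2.35e-62). Transferrin, the iron carrier encoded by Trf, had 2586, 2680.0, 2678 and 2401 CPM at P11 and 8236, 8718, 8322 and 8276 CPM at P29 (log2 fold change 1.70, SE 0.043, adjusted p = 2.70e-58). Timp3, an inhibitor of metalloproteinases that is stored in Bruch's membrane, had 2391, 2149, 2313 and 2459 CPM at P11 and 7282, 7032, 7244 and 7439 CPM at P29 (log2 fold change 1.64, SE 0.044, adjusted p = 2.92e-56). No overlap between the ages was a condition of this choice. For each of these genes the highest P11 library lay far below the lowest P29 library. The major beta globin Hbb-bs moved the other way, with 13915, 14496, 14362 and 12802 CPM at P11 and 1220.5, 1299, 1104 and 1362 CPM at P29 (log2 fold change -3.48, SE 0.052, adjusted p = 5.78e-79). Hbb-bt and Hba-a2 fell to a similar degree, at -3.25 (SE 0.073) and -3.06 (SE 0.066) on the log2 scale, as did Alas2, the heme synthesis enzyme of red cell precursors, at -3.16 (SE 0.17). The whole list of 6 tested erythrocyte markers fell, and its summed level went from 26974 to 29062 CPM at P11 to 2570 to 3202 CPM at P29.

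By fold change, the largest rises among genes of at least 20 CPM in 1 group with no overlap between groups mixed metabolic, signalling and interferon-induced genes. Sult1c1, a sulfotransferase, had 1.67, 2.41, 5.70 and 4.78 CPM at P11 and 91.7, 51.0, 68.6 and 63.4 CPM at P29 (log2 fold change 4.34, SE 0.22, adjusted p = 1.34e-33). Cyp27a1, which hydroxylates the side chain of cholesterol in mitochondria, had 4.01, 1.20, 0.633 and 2.13 CPM at P11 and 38.9, 35.9, 48.7 and 31.2 CPM at P29 (log2 fold change 4.07, SE 0.36, adjusted p = 7.72e-18). The potassium channel gene Kcnj14 had 3.01, 4.21, 6.96 and 6.38 CPM at P11 and 31.8, 42.6, 33.6 and 55.0 CPM at P29 (log2 fold change 3.02, SE 0.32, adjusted p = 1.30e-13). No P11 library exceeded 6.96 CPM and no P29 library was below 31.2 CPM for any of these 3 genes. Myoc, which encodes the secreted protein myocilin, rose from 10.6 CPM ± 4.27 to 113 CPM ± 12.8 (SD, n = 4 here and below, log2 fold change 3.44, SE 0.20, adjusted p = 1.45e-28). Among signalling genes the log2 fold changes were 2.86 (SE 0.22) for the kinase gene Nuak2, 2.87 (SE 0.32) for the phosphatase inhibitor Ppp1r1b and 4.98 (SE 0.63) for the chemokine Cxcl2. Those of the interferon-induced genes Ifi27 and Gbp3 were 2.97 (SE 0.19) and 3.06 (SE 0.38), and that of the histone gene Hist1h3d was 4.19 (SE 0.67). The transcription regulators Atf3, Nr4a3, Csrnp1 and Sertad1 had 3.14 (SE 0.30), 3.08 (SE 0.39), 3.63 (SE 0.51) and 2.79 (SE 0.46). The last of the 15 was Guca1a, a calcium sensor of photoreceptors, which rose from 15.4 CPM ± 3.85 to 139 CPM ± 8.53 (log2 fold change 3.13, SE 0.18, adjusted p = 5.77e-29).

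The largest falls, chosen under the same conditions, were genes of neurons, glia and vessels. Grm6, the glutamate receptor of ON bipolar cells, had 170 counts over the P11 libraries and none at P29, at least 70.1-fold lower over a floor of 3 counts for the group. Igdcc3 had 182 counts and none, at least 75.1-fold lower. Avp, the vasopressin precursor, had 325 counts and 1, and the ratio was 402 (exact 95% Poisson interval 71.7 to 15930, for counting error only). Its P11 level ran from 12.2 to 63.2 CPM between libraries. Gfap, the intermediate filament of astrocytes, had 48.8, 68.6, 77.8 and 57.4 CPM at P11 and 0, 0, 1.11 and 1.49 CPM at P29 (log2 fold change -6.58, SE 0.60, adjusted p = 6.07e-17). Nnat, an imprinted gene of neuronal and endocrine cells, had 113, 135, 101 and 116 CPM at P11 and 2.50, 0.398, 3.32 and 0.991 CPM at P29 (log2 fold change -5.91, SE 0.35, adjusted p = 2.20e-22). In none of these genes did a P29 library exceed 3.32 CPM. The retinal transcription factors Neurod4 and Isl1 fell by log2 fold changes of -5.44 (SE 0.38) and -5.02 (SE 0.92). Those of the neuronal genes Celf3, Ina, Cacng4, Gabbr2 and Pcdh17 were -6.13 (SE 0.49), -4.84 (SE 0.42), -5.37 (SE 0.54), -5.09 (SE 0.71) and -5.58 (SE 0.79). The myelin gene Mag had -6.21 (SE 0.85), and Ackr1, a chemokine receptor of small veins, had -4.80 (SE 0.56). In such bulk libraries fewer cells of a type and less RNA per cell cannot be told apart.

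Visual cycle genes rose together. Of 14 tested genes that make, bind or carry retinoids, 12 rose and 0 fell, and the median log2 fold change of the list was 1.07 beside -0.022 over all genes. Rpe65, the isomerase that forms 11-cis retinol, had 2420.0, 2424, 2396 and 2407 CPM at P11 and 7593, 7831, 7390.4 and 7854 CPM at P29 (log2 fold change 1.67, SE 0.044, adjusted p = 2.51e-56). Lrat, which esterifies retinol and so supplies Rpe65, had 471, 369, 381 and 438 CPM at P11 and 1828, 1867, 1987 and 1863 CPM at P29 (log2 fold change 2.18, SE 0.067, adjusted p = 4.83e-51). The RPE opsin gene Rgr had 1340.5, 1436, 1228 and 1362 CPM at P11 and 5472, 5491, 5723 and 5396 CPM at P29 (log2 fold change 2.04, SE 0.047, adjusted p = 1.35e-61). The groups lay far apart for all 3, with every P29 library above every P11 library. Rlbp1, which encodes the retinaldehyde-binding protein CRALBP, rose from 1262 CPM ± 78.3 to 3196 CPM ± 138 (log2 fold change 1.34, SE 0.053, adjusted p = 8.15e-42). Transthyretin, the plasma carrier of the retinol-binding protein and of thyroxine encoded by Ttr, rose from 12067 CPM ± 313 to 26185 CPM ± 328 (log2 fold change 1.12, SE 0.034, adjusted p = 4.83e-51). The other members called included Rdh5, Rdh10, Rdh11, Stra6, Dhrs3 and Retsat, while Rbp4 and Bco1, with group means under 5 CPM, were not called.

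The promoters of Rpe65 and Rlbp1 are shown with those of the pigment genes Tyrp1 and Dct, because the visual cycle genes rose while these pigment genes fell and all are known targets of RPE transcription factors. Sequences are from RefSeq on GRCm38.p6, 5′ to 3′ on the strand of the gene, from 250 bases before to 50 after the annotated start. Rpe65 lies at chr3:159598931-159599230 on the plus strand, Rlbp1 at chr7:79386978-79387277 on the minus strand, Tyrp1 at chr4:80833963-80834262 on the plus strand and Dct at chr14:118052197-118052496 on the minus strand. Capitals mark CATGTG, the M-box core bound by Mitf, and TAATCC, the core bound by Otx2, on either strand.
Rpe65: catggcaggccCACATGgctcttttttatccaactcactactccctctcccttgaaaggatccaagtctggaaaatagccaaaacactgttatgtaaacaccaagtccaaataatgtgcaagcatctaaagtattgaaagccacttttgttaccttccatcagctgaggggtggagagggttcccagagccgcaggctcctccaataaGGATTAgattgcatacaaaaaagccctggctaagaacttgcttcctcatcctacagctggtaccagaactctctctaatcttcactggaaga
Rlbp1: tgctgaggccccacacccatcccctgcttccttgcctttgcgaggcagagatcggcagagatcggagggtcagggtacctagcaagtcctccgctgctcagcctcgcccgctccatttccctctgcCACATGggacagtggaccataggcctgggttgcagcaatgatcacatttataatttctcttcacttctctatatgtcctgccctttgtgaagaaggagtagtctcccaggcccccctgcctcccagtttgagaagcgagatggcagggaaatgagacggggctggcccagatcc
Tyrp1: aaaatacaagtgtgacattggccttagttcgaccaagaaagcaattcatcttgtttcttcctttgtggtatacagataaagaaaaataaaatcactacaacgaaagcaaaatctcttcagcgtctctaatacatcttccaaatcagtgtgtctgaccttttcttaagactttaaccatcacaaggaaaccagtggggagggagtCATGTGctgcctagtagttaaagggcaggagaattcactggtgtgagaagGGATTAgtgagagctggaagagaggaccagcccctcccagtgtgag
Dct: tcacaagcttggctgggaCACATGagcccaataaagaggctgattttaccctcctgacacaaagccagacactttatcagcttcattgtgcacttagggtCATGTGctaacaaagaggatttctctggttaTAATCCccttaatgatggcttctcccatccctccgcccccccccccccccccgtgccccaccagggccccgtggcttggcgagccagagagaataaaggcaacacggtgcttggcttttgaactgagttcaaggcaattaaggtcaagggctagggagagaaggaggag
Both motifs were found in the windows of Rpe65, Tyrp1 and Dct, and CATGTG alone in that of Rlbp1. Over the lists, CATGTG was found for 5 of the 11 visual cycle genes and 7 of the 13 pigment genes that had a RefSeq promoter, and TAATCC for 3 and 3. These counts are of genes with a match in any of their promoters, while the shares that follow are of single promoters. Of all 32851 promoters of the same length, 14.2% held CATGTG and 7.06% held TAATCC, so rising and falling members share these letters, which describe the windows and are not shown to be sites. CACGTG, a palindromic E-box, was in 1 of the 11 and 4 of the 13, against 7.15% of all promoters. No 2 matches overlap in the sequences printed.

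Pigment genes divided. Of 17 tested genes of melanin synthesis and the melanosome, 7 fell and 4 rose, and the list median was -0.26. Pmel, which forms the fibrils on which melanin is laid down, had 2147, 2179.5, 2272 and 1959.5 CPM at P11 and 338, 357, 294 and 318 CPM at P29 (log2 fold change -2.71, SE 0.082, adjusted p = 8.85e-48). Dct, the dopachrome tautomerase whose promoter drives the Cre here, had 6948, 7796, 7167 and 7807 CPM at P11 and 4440.3, 4564, 4860.2 and 4932 CPM at P29 (log2 fold change -0.66, SE 0.047, adjusted p = 7.42e-23). Tyrp1, the related enzyme of eumelanin synthesis, had 473, 456, 487 and 451 CPM at P11 and 226, 211, 228 and 265 CPM at P29 (log2 fold change -1.01, SE 0.091, adjusted p = 3.40e-17). Each of these was lower in all 4 P29 libraries than in any P11 library. Tyrosinase, the rate-limiting enzyme encoded by Tyr, was not called: it had 182, 137, 125 and 157 CPM at P11 and 176, 153, 182 and 162 CPM at P29, with overlapping groups (log2 fold change 0.16, SE 0.12, adjusted p = 0.329). The channel gene Trpm1, expressed by melanocytes and also by ON bipolar cells, had -0.79 (SE 0.11), and Mlph, Mlana and Gpnmb were the other members that fell. The 4 that rose were the ion exchanger gene Slc24a5, the channel gene Oca2, the transport GTPase gene Rab27a and Hps4, which acts in organelle assembly. Leaving out 1 library ended the call of Mlph (without P11 replicate 2, P29 replicate 1 or P29 replicate 3, adjusted p up to 0.0799), Oca2 (without P11 replicate 1 or 4 or P29 replicate 3, up to 0.199) and Hps4 (without P29 replicate 1, 0.0522), each by edgeR. Choroidal melanocytes express the same enzymes: 5 of their 8 listed markers fell and 1, Sox10, rose, with a summed level of 7779 to 8655 CPM at P11 and 4964 to 5470 CPM at P29, mostly Dct, and no marker at 0. The part of melanocytes in these values was not tested.

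Transcription factors of the eye field and of RPE fate went both ways, 6 higher and 7 lower of 17 tested, with a median of 0.037. Those that rose were Otx2, Mitf, Sox9, Lhx2, Six3 and Klf4, and those that fell included Six6, Sox11, Pax6, Rax, Sox4 and Meis1. Otx2, which directs eye and photoreceptor genes, had 769, 772, 710.0 and 766 CPM at P11 and 1151, 1034, 1058 and 1058 CPM at P29 (log2 fold change 0.51, SE 0.063, adjusted p = 5.14e-11) and Mitf, the master regulator of pigment cells, had 109.6, 109, 144 and 129 CPM at P11 and 197, 175, 184 and 163 CPM at P29 (log2 fold change 0.55, SE 0.12, adjusted p = 7.37e-05). Sox9, which activates visual cycle promoters with Otx2, had 256, 312, 263 and 277 CPM at P11 and 823, 865, 775 and 862 CPM at P29 (log2 fold change 1.59, SE 0.074, adjusted p = 8.09e-36). The 3 factors were higher in every P29 library than in any at P11. Klf4, which is also counted with the immediate early class in many tissues, rose from 81.6 CPM ± 16.4 to 288 CPM ± 4.51 (log2 fold change 1.83, SE 0.13, adjusted p = 1.42e-22). Sox4, a factor of young neurons, had -1.40 (SE 0.14) on the log2 scale. Several of the members that fell are also expressed in neural retina. Its inner neuron markers fell in 17 of 18 tested members, and their summed level was 1121 to 1260 CPM at P11 and 756 to 856 CPM at P29. Without Slc6a9, the member that rose, the sums were 756 to 840.4 CPM at P11 and 259.8 to 293 CPM at P29. Pou4f2 was at 0 at both ages and Vsx1 and Grm6 were at 0 at P29, and the part of retinal neurons in the factor counts was not tested.

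**Figure D2:**
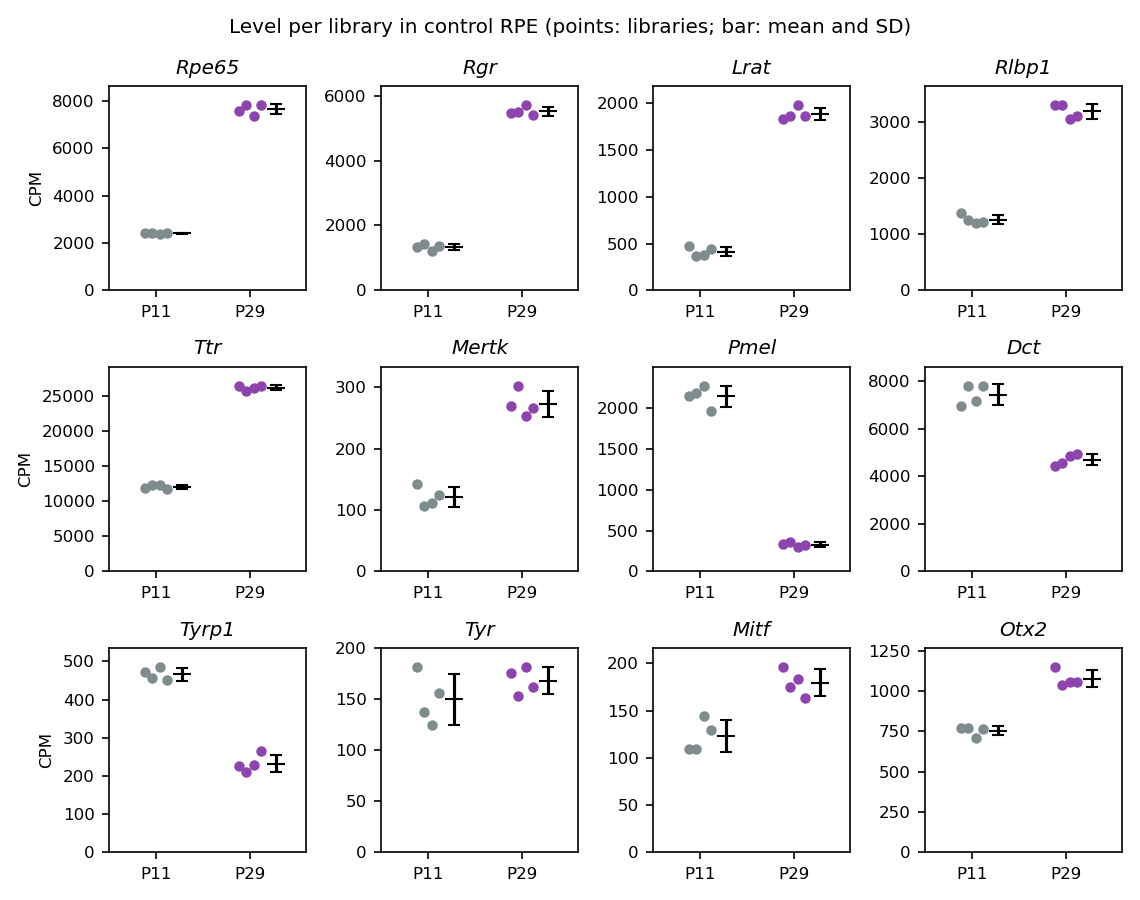
Each panel gives 1 gene in control RPE, with CPM on a vertical axis from 0, the 4 P11 libraries in grey, the 4 P29 libraries in purple, and the group mean with its SD as a black bar. The 6 RPE function genes from Rpe65 to Mertk and the factors Mitf and Otx2 are higher at P29, Pmel, Dct and Tyrp1 are lower, and the 2 groups of Tyr overlap.

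Genes of outer segment uptake rose in 8 and fell in 3 of 18 tested, with a median of 0.089. Mertk, the receptor kinase that triggers engulfment, had 142, 106, 112 and 125 CPM at P11 and 269.5, 302, 253 and 266 CPM at P29 (log2 fold change 1.16, SE 0.11, adjusted p = 1.43e-16), without overlap. Rac1, a GTPase of the engulfing actin ring, had 0.67 (SE 0.097). The tubby-family genes Tulp1 and Tub, which are also expressed in photoreceptors, had -0.90 (SE 0.092) and -1.89 (SE 0.24), and the third fall was Pros1, a bridging ligand of Mertk. The call of Pros1 was lost without P11 replicate 3, P29 replicate 2 or P29 replicate 4 (adjusted p of edgeR up to 0.0784). Gas6, the other bridging ligand, was called higher at 0.33 (SE 0.13), and the call was lost without P11 replicate 1, 2 or 3 or P29 replicate 1, 3 or 4 (edgeR adjusted p up to 0.282). The count of rises was 5 without P11 replicate 3, without P29 replicate 1, with DESeq2, with its size factors, with limma-voom and with only the 8 libraries. Lysosome and autophagy genes rose in 14 and fell in 2 (Grn among them) of 26, with a median of 0.39. Psap, the precursor of the saposins that help break down sphingolipids, rose from 981 CPM ± 97.0 to 2343 CPM ± 173 (log2 fold change 1.26, SE 0.061, adjusted p = 6.52e-34). The tetraspanin Cd63 of late endosomes and melanosomes, the cholesterol carrier Npc2 and the proton pump subunit Atp6v1a had 1.02 (SE 0.059), 0.97 (SE 0.074) and 0.76 (SE 0.081).

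Transport genes rose in most cases. Of 19 tested ion channels and transporters 11 rose and 4 fell (median 0.63), and of 18 metabolite and thyroid hormone transporters 10 rose and 0 fell (median 0.35). Kcnj13, the apical potassium channel Kir7.1, had 194, 224, 149 and 173 CPM at P11 and 712, 694, 645 and 647 CPM at P29 (log2 fold change 1.86, SE 0.081, adjusted p = 1.37e-38). Slc16a8, the basolateral lactate exporter MCT3 that is largely restricted to RPE and choroid plexus, had 468, 495, 525 and 466 CPM at P11 and 1143, 1099, 1059 and 1116 CPM at P29 (log2 fold change 1.18, SE 0.066, adjusted p = 4.96e-30). The apical lactate carrier Slc16a1 rose less, from 845 CPM ± 20.4 to 1219.9 CPM ± 66.6 (log2 fold change 0.53, SE 0.063, adjusted p = 1.43e-11), and Bsg, the accessory protein of both carriers, had 0.84 (SE 0.059). For these genes of lactate transport the P11 and P29 values did not overlap. The sodium pump subunit Atp1b1 had 0.92 (SE 0.061), the bicarbonate cotransporter Slc4a5 0.97 (SE 0.066), the GABA and taurine carrier Slc6a13 0.84 (SE 0.082), and the organic anion carrier Slco1a4 0.74 (SE 0.097). Epithelial junction and apical scaffold genes rose in 10 and fell in 3 (Cdh2, Cdh3 and Gja1) of 24 (median 0.41), although Cdh3 was not called without P11 replicate 1 or 3 or P29 replicate 1, 2 or 4 (edgeR adjusted p up to 0.254). Ezrin, which anchors the apical microvilli and is encoded by Ezr, had 522, 552, 609 and 537 CPM at P11 and 1204, 1275, 1169 and 1172 CPM at P29 (log2 fold change 1.12, SE 0.065, adjusted p = 9.06e-29). Its partner Slc9a3r1 had 1.30 (SE 0.12) and the junction gene Jam3 1.26 (SE 0.16). The genes that fell among the ion list were the carbonic anhydrase Car2, the water channel Aqp1, Cacna1d and Atp1b2, a count of 2 without P11 replicate 4 or P29 replicate 3 and without Cacna1d when P11 replicate 3 or P29 replicate 4 was left out. A metabolite transporter fell without P29 replicate 4.

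Most of the tested matrix genes fell. In the list of basement membrane and Bruch's membrane 15 of 23 fell and 3 rose (median -0.80), and among fibrillar collagens and their assembly genes 16 of 31 fell and 1 rose (median -1.0). Elastin (Eln), the core of the middle layer of Bruch's membrane, had 184, 199, 171 and 163 CPM at P11 and 23.6, 21.9, 11.4 and 20.3 CPM at P29 (log2 fold change -3.21, SE 0.21, adjusted p = 1.68e-25). The type IV collagen gene Col4a1 had 134, 161, 165 and 143 CPM at P11 and 37.1, 27.9, 33.9 and 24.3 CPM at P29 (log2 fold change -2.28, SE 0.19, adjusted p = 1.64e-18). Sparc, a collagen-binding protein secreted by RPE and stroma, had 2317, 2409, 2254 and 2206 CPM at P11 and 1044, 1112, 1057 and 1016 CPM at P29 (log2 fold change -1.12, SE 0.064, adjusted p = 1.22e-29). The 4 P29 values of each gene were below all 4 P11 values. The interstitial collagens Col1a2 and Col3a1 had -1.0 (SE 0.20) and -1.63 (SE 0.24), and Col5a2 and Col9a1 had -1.71 (SE 0.29) and -4.0 (SE 0.51). Col8a2, a short-chain collagen of Bruch's membrane, went against its list with 412, 457, 427 and 413 CPM at P11 and 1027, 1070.3, 1128 and 979.8 CPM at P29 (log2 fold change 1.30, SE 0.067, adjusted p = 6.20e-33), as did Timp3 and Col18a1, and the list's summed level was 8015 to 8380 CPM at P11 and 12925 to 13149 CPM at P29, with Timp3 taking much of the gain. The rise among the fibrillar list was Col9a3. Endothelial markers fell in 13 of 14 and rose in 1 (Ramp2), with a summed 659 to 732 CPM at P11 and 322 to 363 CPM at P29, with Erg at 0 at P11 only. Fibroblast markers fell in 7 and rose in 1 (Dcn) of 12, with a summed 3110 to 3478 CPM at P11 and 1976 to 2083 CPM at P29, with Twist2 at 0 at P11 only and Col1a1, Col1a2, Col3a1 and Fmod on both this list and the collagen list. At P11 endothelial markers took 0.0688% to 0.0751% of counts in controls and 0.0291% to 0.0371% in mutants. Controls at P29 had 0.0324% to 0.0365%. Log2 fold changes in controls and mutants were -2.16 and -0.81 for Flt1, and -2.45 and -1.88 for Kdr. Eln and Col4a1 had means of 81.8 and 69.6 CPM in mutants at P11, while Sparc had 1946 CPM. The part of vessels and stroma in the matrix counts, and of control P11 library content in these falls, was not tested.

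Secreted signals changed in both directions. Of 26 tested growth factors 12 rose and 5 fell (median 0.54), the falls being Igfbp3, Ptn, Fgf9, Igf1 and Igfbp2. Bmp4 had 140.0, 155, 143 and 236 CPM at P11 and 461, 481, 601 and 584 CPM at P29 (log2 fold change 1.66, SE 0.16, adjusted p = 5.17e-08) and Bmp2 63.8, 46.3, 45.6 and 62.2 CPM at P11 and 182, 156, 197 and 207 CPM at P29 (log2 fold change 1.75, SE 0.13, adjusted p = 6.19e-22). The BMP antagonist Nog rose beside them, with 52.1, 16.8, 22.8 and 39.8 CPM at P11 and 111, 121, 145 and 120.4 CPM at P29 (log2 fold change 1.86, SE 0.20, adjusted p = 3.38e-11). Both ligands and their antagonist were thus higher in all P29 libraries. Tgfb2, a TGF-beta ligand, fell from 88.9 CPM ± 16.2 to 21 CPM ± 4.51 (log2 fold change -2.08, SE 0.21, adjusted p = 1.83e-14). Over the BMP and TGF-beta list 6 rose and 3 (Tgfb2, Id1 and Id4) fell of 22 (median -0.044, 40.9% called beside 32% of all genes), with 5 falls without P11 replicate 4 or P29 replicate 1 and with DESeq2. Vegfa, which keeps the choriocapillaris open, had 0.91 (SE 0.10), and the neurotrophin Bdnf 2.48 (SE 0.28). Of 20 Wnt pathway genes 6 rose and 2 (Nkd1 and Wnt5a) fell, 1 without P11 replicate 1 (median 0.24, 40% called beside 32% of all genes). Those that rose included the receptor Fzd4 at 1.31 (SE 0.092) and the secreted antagonist Sfrp5 at 1.22 (SE 0.13).

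Immediate early genes, whose transcription starts within minutes of a stimulus, rose in 19 of 23 tested members and fell in 0, with a median of 1.64, the highest of the 29 functional lists. Egr1 had 161, 165, 197 and 190.2 CPM at P11 and 915, 837, 927 and 951 CPM at P29 (log2 fold change 2.35, SE 0.082, adjusted p = 5.00e-46). Jun had 171, 135, 129.7 and 167 CPM at P11 and 607, 655, 639 and 562 CPM at P29 (log2 fold change 2.02, SE 0.096, adjusted p = 1.44e-35), and Fosb had 124, 99.3, 102 and 115 CPM at P11 and 485, 559.8, 572 and 495 CPM at P29 (log2 fold change 2.25, SE 0.11, adjusted p = 2.74e-34). The P29 libraries of each factor lay well above all those at P11. Of the listed genes that did not pass, Egr2 and Egr3 had group means under 4 CPM, and Klf2 and Ier3 were the others. A fall was called without P11 replicate 1 and with DESeq2 or its size factors. The nuclear receptor Nr4a1 had 2.15 (SE 0.16), beside Nr4a3 and Atf3 given above. The time of day and the interval between death and lysis were not stated, and their part in these values was not tested.

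Clock genes also changed. Of 19 tested, 10 rose and 2 (the activator Arntl and Rorb) fell (median 0.72). Bhlhe40, a repressor of the clock that is also induced by many stimuli, had 41.1, 29.5, 44.3 and 23.4 CPM at P11 and 141, 167, 146 and 177 CPM at P29 (log2 fold change 2.18, SE 0.16, adjusted p = 7.71e-21). The output factors Dbp and Tef rose from 97.1 CPM ± 11.2 to 237 CPM ± 28.9 (log2 fold change 1.29, SE 0.10, adjusted p = 8.07e-20) and from 155 CPM ± 9.24 to 298 CPM ± 24.3 (log2 fold change 0.95, SE 0.10, adjusted p = 9.00e-14). Ciart, a repressor of the clock activators, had 2 counts in all P11 libraries and 146 at P29, and the ratio was 59 (exact 95% Poisson interval 16 to 492). The falls numbered 1 without P11 replicate 4 or P29 replicate 2. The Ciart promoter is printed because it held 3 copies of CACGTG, the E-box through which the clock activators work, in capitals here, at chr3:95882179-95882478 on the minus strand.
Ciart: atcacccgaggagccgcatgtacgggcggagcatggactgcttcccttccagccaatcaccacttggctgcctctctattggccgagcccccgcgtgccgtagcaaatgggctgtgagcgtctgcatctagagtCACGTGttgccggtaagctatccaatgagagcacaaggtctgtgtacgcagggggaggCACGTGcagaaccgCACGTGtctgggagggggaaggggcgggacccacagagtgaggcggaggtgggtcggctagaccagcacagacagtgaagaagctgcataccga
CACGTG was found for 5 of the 17 clock genes that had a RefSeq promoter (Bhlhe41, Ciart, Cry1, Per1 and Tef), counted by gene, against 7.15% of all single promoters. Its presence does not show binding.

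Transcripts of the mitochondrial genome fell while more nuclear genes of the same complexes rose than fell. Of 11 tested mitochondrial genes 10 fell and mt-Co2 was not called (median -1.02), and the share of counts on this genome went from 7.30% to 8.79% at P11 to 4.76% to 5.45% at P29. The complex I gene mt-Nd1 had 17101, 17463, 17568 and 15650.0 CPM at P11 and 7750.0, 7674, 7973 and 7467 CPM at P29 (log2 fold change -1.14, SE 0.042, adjusted p = 9.72e-44), the cytochrome oxidase gene mt-Co1 -0.73 (SE 0.056) and the cytochrome b gene mt-Cytb -0.57 (SE 0.057). The nuclear list of oxidative phosphorylation had 13 higher and 3 lower of 30 (median 0.19), for example Cox8a at 0.67 (SE 0.082) and Uqcrc2 at 0.64 (SE 0.12), and its falls numbered 1 without P11 replicate 2, P29 replicate 3 or P29 replicate 4. Fatty acid oxidation and ketone genes rose in 11 and fell in 1 of 23 (median 0.58). Etfb, a subunit of the electron carrier that takes electrons from fatty acid oxidation, had 168, 194, 201 and 208 CPM at P11 and 255, 312, 311 and 271 CPM at P29 (log2 fold change 0.58, SE 0.092, adjusted p = 1.27e-07). The single fall was the coactivator Ppargc1b, from 126 CPM ± 8.49 to 28.7 CPM ± 4.25 (log2 fold change -2.14, SE 0.18, adjusted p = 1.43e-18).

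Glycolysis genes rose in 6 and fell in 2 (Ldha and Eno2) of 19 (median 0.27, 42.1% called beside 32% of all genes). The lactate dehydrogenase subunits moved apart. Ldha, the subunit that favours lactate formation, had 267.4, 274, 269 and 278 CPM at P11 and 129, 142, 135 and 106 CPM at P29 (log2 fold change -1.08, SE 0.11, adjusted p = 1.65e-15). Ldhb, which favours its use, had 143, 137, 155 and 134 CPM at P11 and 246, 262, 268 and 311 CPM at P29 (log2 fold change 0.93, SE 0.100, adjusted p = 1.15e-13). The groups did not overlap for either, and their order was opposite. Aldolase A (Aldoa) had 0.77 (SE 0.061) and hexokinase 2 (Hk2) 2.33 (SE 0.20). Genes of lipid synthesis and efflux rose in 9 and fell in 3 (Abca1, Abcg1 and Srebf1, the last not called without P11 replicate 1 or P29 replicate 1) of 29 (median 0.37, 41.4% called). Apoe, the lipid carrier that RPE secretes, rose from 2774 CPM ± 115 to 6852 CPM ± 304 (log2 fold change 1.30, SE 0.048, adjusted p = 1.90e-44), and the desaturase Fads1 had 0.92 (SE 0.12).

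Antioxidant genes rose in 15 and fell in 1 (Txn1) of 28 (median 0.49), with 2 falls without P29 replicate 4 and with DESeq2. The metallothionein genes Mt2 and Mt1, which bind zinc and copper, had 595, 703, 595 and 674 CPM at P11 and 2890.0, 2844, 2794 and 2839 CPM at P29 (log2 fold change 2.15, SE 0.061, adjusted p = 1.78e-46) and a rise from 1817 CPM ± 152 to 5353 CPM ± 428 (log2 fold change 1.56, SE 0.052, adjusted p = 7.77e-44). The Mt2 values of the 2 ages were far apart. Catalase (Cat) had 1.27 (SE 0.11) and superoxide dismutase 1 (Sod1) 0.75 (SE 0.070). Iron genes rose in 5 and fell in 2 (the exporter Slc40a1 and ceruloplasmin, Cp) of 15 (median 0.18, 46.7% called beside 32% of all genes). Trf was given above, and the ferritin heavy chain Fth1 had 0.57 (SE 0.071). Of the iron genes 1 fell without any 1 of 6 libraries (P11 replicates 1, 2 and 4, P29 replicates 1, 3 and 4). Complement genes and their inhibitors rose in 6 and fell in 1 of 14 (median 0.61). The rises included the inhibitors clusterin (Clu), from 3027 CPM ± 95.4 to 6337 CPM ± 118 (log2 fold change 1.07, SE 0.045, adjusted p = 1.04e-39) and Cd59a at 1.41 (SE 0.23). The fall was the inhibitor Cd55, with 29 counts at P11 and 3 at P29, and no member fell without P11 replicate 4 or without P29 replicate 2, 3 or 4.

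Interferon and antigen presentation genes rose in 13 and fell in 0 of 22 tested (median 1.21). B2m, the light chain of class I molecules, had 475, 493, 467 and 409 CPM at P11 and 873, 940.0, 984 and 787 CPM at P29 (log2 fold change 0.96, SE 0.074, adjusted p = 6.20e-21). The interferon-induced gene Ifit3 had 25.4, 9.63, 9.49 and 19.7 CPM at P11 and 87.1, 86.5, 57.2 and 93.1 CPM at P29 (log2 fold change 2.26, SE 0.23, adjusted p = 2.65e-14). The class II gene H2-Aa, normally of antigen-presenting cells, had 4.68, 7.82, 5.70 and 7.44 CPM at P11 and 43.2, 29.5, 44.6 and 38.6 CPM at P29 (log2 fold change 2.62, SE 0.35, adjusted p = 1.06e-09). All groups were apart. Of 13 microglia and macrophage markers 1 rose and 2 fell (23.1% called), with a summed 444 to 480 CPM at P11 and 553 to 637 CPM at P29 and none at 0, and the 9 lymphocyte markers had too few counts to test. Csf1r, the growth factor receptor of macrophages, was higher at 1.09 (SE 0.088), while Cx3cr1, a receptor of microglia, and Mrc1 were lower, the first at -2.06 (SE 0.29). Their part in the interferon list was not tested.

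Imprinted growth genes fell in 7 and rose in 1 of 15 (median -0.69). The noncoding RNA Meg3 had 588, 670.2, 564 and 715 CPM at P11 and 127, 123, 119.8 and 114 CPM at P29 (log2 fold change -2.39, SE 0.13, adjusted p = 5.52e-17), Igf2, the fetal growth factor, had 22.1, 22.3, 19.6 and 14.3 CPM at P11 and 6.43, 9.56, 2.21 and 5.45 CPM at P29 (log2 fold change -1.72, SE 0.45, adjusted p = 0.0012), and the cyclin-dependent kinase inhibitor Cdkn1c had -0.69 (SE 0.16). Decorin (Dcn), a matrix proteoglycan, was the member that rose, at 0.95 (SE 0.083). Cell cycle genes were mostly low and not called: 2 rose, 3 fell and 17 did not pass of 22 tested (22.7% called), 8 of the 30 listed had too few counts, and the median was -0.44. The replication topoisomerase Top2a fell from 22.8 CPM ± 12.1 to 3.76 CPM ± 0.978 (log2 fold change -2.59, SE 0.58, adjusted p = 0.000162), while the D cyclins Ccnd1 and Ccnd3 had 0.87 (SE 0.078) and 0.73 (SE 0.10); DESeq2 gave 5 falls. Ribosomal protein genes fell in 8 and rose in 0 of 30 (median -0.24), a share of 26.7% called beside the 32% of all genes, the largest falls being Rpl32 at -0.56 (SE 0.093) and Rpl27 at -0.52 (SE 0.097); 13 fell with DESeq2 or with its size factors in edgeR, and 1 rose without P11 replicate 4. Genes of the unfolded protein response rose in 6 and fell in 1 of 17 (median 0.027, 41.2% called), and the fall, of Hsp90b1, was lost without P11 replicate 3, P29 replicate 2 or P29 replicate 4.

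Ift20, a subunit of the intraflagellar transport complex that builds cilia and the gene targeted in the mutants, showed no called difference between the ages of the controls. It had 106, 93.8, 60.7 and 149.8 CPM at P11 and 121, 84.9, 124 and 102 CPM at P29, with overlapping groups (log2 fold change 0.067, SE 0.15, adjusted p = 0.781). It spans 78536361 to 78541737 on chromosome 11 of GRCm38, plus strand. Of 33 tested genes of intraflagellar transport and the cilium 4 rose and 3 fell (median -0.13), a share of 21.2% beside the 32% of all genes. Ift57 and Ift52 had 1.09 (SE 0.21) and 0.99 (SE 0.26), and Wdr35 had 0.54 (SE 0.17), a call lost without P11 replicate 2 (0.38, edgeR adjusted p = 0.0861). Cep290, a protein of the ciliary transition zone that photoreceptors also express strongly, fell from 251 CPM ± 25.7 to 128 CPM ± 11.7 (log2 fold change -0.97, SE 0.12, adjusted p = 6.11e-11). The count of falls was 1 without P11 replicate 2 or P29 replicate 1.

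**Figure D3:**
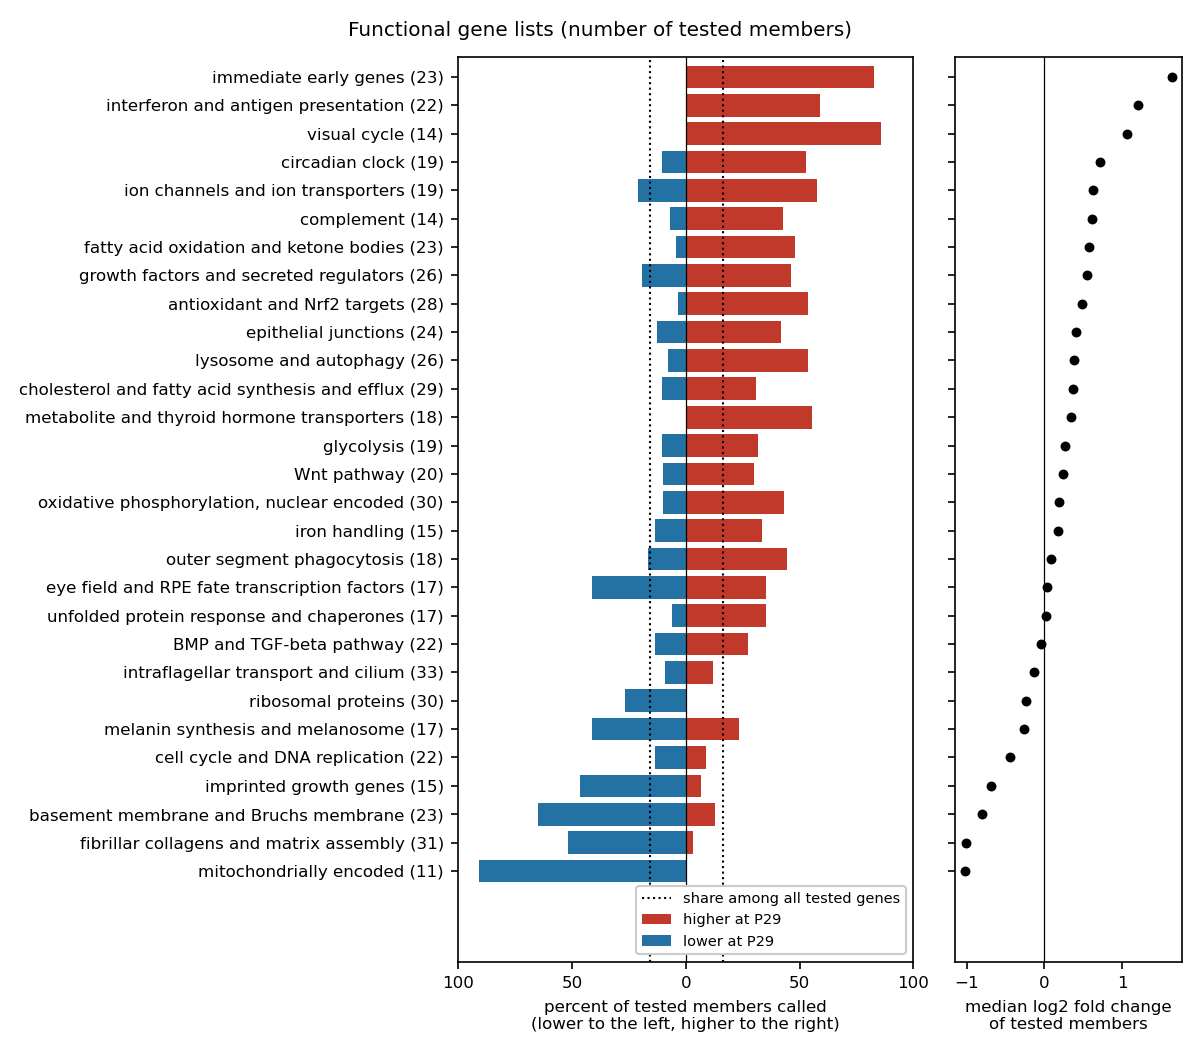
Bars give, for each of the 29 functional lists, the percent of tested members called higher at P29 (red, to the right) and called lower (blue, to the left), with the number of tested members in brackets, and dotted lines mark the 16.5% higher and 15.6% lower among all tested genes. The points at the right give the median log2 fold change of each list, the highest being 1.64 for immediate early genes and the lowest -1.02 for mitochondrially encoded genes.

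Rod genes did not move as a block. Of 18 tested 11 fell and 5 rose (median -0.44), the summed level was 15218 to 16077 CPM at P11 and 14355 to 15061 CPM at P29, and no marker was at 0. Arrestin (Sag) had 2799, 2912, 2696 and 3318 CPM at P11 and 1228, 1069.5, 1216 and 1226 CPM at P29 (log2 fold change -1.31, SE 0.059, adjusted p = 2.80e-37). The rod transducin gene Gnat1 had 511, 521, 496 and 564 CPM at P11 and 1581, 1462, 1488 and 1574 CPM at P29 (log2 fold change 1.54, SE 0.066, adjusted p = 6.35e-39). The photoreceptor nuclear receptor Nr2e3 and the axonemal protein Rp1 had -2.01 (SE 0.088) and -1.78 (SE 0.078). Genes of the same cell thus moved both ways, with the groups apart for each. The other members that rose included Pde6a, Slc24a1 and Guca1a. Cone markers fell in 6 of 10 and rose in 0 (median -1.03), with a summed 299.7 to 412 CPM at P11 and 133 to 143 CPM at P29, with Gnb3 at -2.49 (SE 0.22) and Gngt2 at -2.36 (SE 0.34).

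Most tested markers of inner neurons, Müller glia, myelin, vessels, lens and muscle fell. In the inner neuron list (median -2.38, unchanged with Grm6 at its bound) Tfap2b, a factor of amacrine cells, had -2.59 (SE 0.25) and Stmn2, a protein of growing axons, -4.50 (SE 0.56). The exception was the glycine transporter gene Slc6a9, which rose. Müller glia markers fell in 6 and rose in 2 of 9, and the summed level was 2428 to 2636 CPM at P11 and 3684 to 3833 CPM at P29 through Glul and Car14, which RPE also expresses: Glul had 0.79 (SE 0.060) and the glutamate carrier Slc1a3 -3.39 (SE 0.34). Astrocyte markers fell in 3 and rose in 1 (Aldh1l1) of 4, with a summed 106 to 174 CPM at P11 and 52.5 to 68.1 CPM at P29, with Pax2 at 0 at P29. Myelin markers fell in 7 of 8, with Mbp at -1.19 (SE 0.17), and Mog was at 0 at P29. The exception was Ermn, which rose from 251 CPM ± 36.6 to 781 CPM ± 31.2 (log2 fold change 1.63, SE 0.078, adjusted p = 4.59e-35) and held much of the summed level, which was 582 to 750 CPM at P11 and 844 to 942 CPM at P29. Among endothelial genes the VEGF receptors Kdr and Flt1 had -2.45 (SE 0.21) and -2.16 (SE 0.24). Lens markers fell in 9 and rose in 0 of 15, with a summed 151 to 188 CPM at P11 and 51.0 to 75.3 CPM at P29, with Cryba1 at -2.39 (SE 0.31) and Crygd at -2.55 (SE 0.48), and 5 fell with only the 8 compared libraries. Skeletal muscle markers fell in 6 of 6, with a summed 81.8 to 126 CPM at P11 and 11.2 to 17.3 CPM at P29, with Acta1 at -4.18 (SE 0.46) and Mylpf at -2.89 (SE 0.48), and Myh13 was at 0 at P11 and Ckm, Myh1 and Myh2 at P29. Pericyte markers fell in 2 (Notch3 and Rgs5) and rose in 0 of 9 (22.2% called), with a summed 375 to 409 CPM at P11 and 259 to 319 CPM at P29. Schwann cell markers rose in 2 of 4 (Pmp22 and Sox10), with a summed 143 to 232 CPM at P11 and 317 to 400.1 CPM at P29, and 1 fell without P11 replicate 3 or P29 replicate 2. None of 3 mast cell markers was called (median -0.45). Ciliary body and iris markers rose in 2 (Myoc and Cldn2) and fell in 2 (Opcml and Zic1) of 6. Corneal markers, at 0.668 to 5.84 CPM in sum at P11 and 15.1 to 26.4 CPM at P29, rose in 2 of 4 (Aldh3a1 and Krt15). Only 1 of them was called without P11 replicate 2, 3 or 4, without P29 replicate 1, with limma-voom and with only the 8 libraries compared or the 12 controls. The part of cell content in the gene lists above was not tested.

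**Figure D4:**
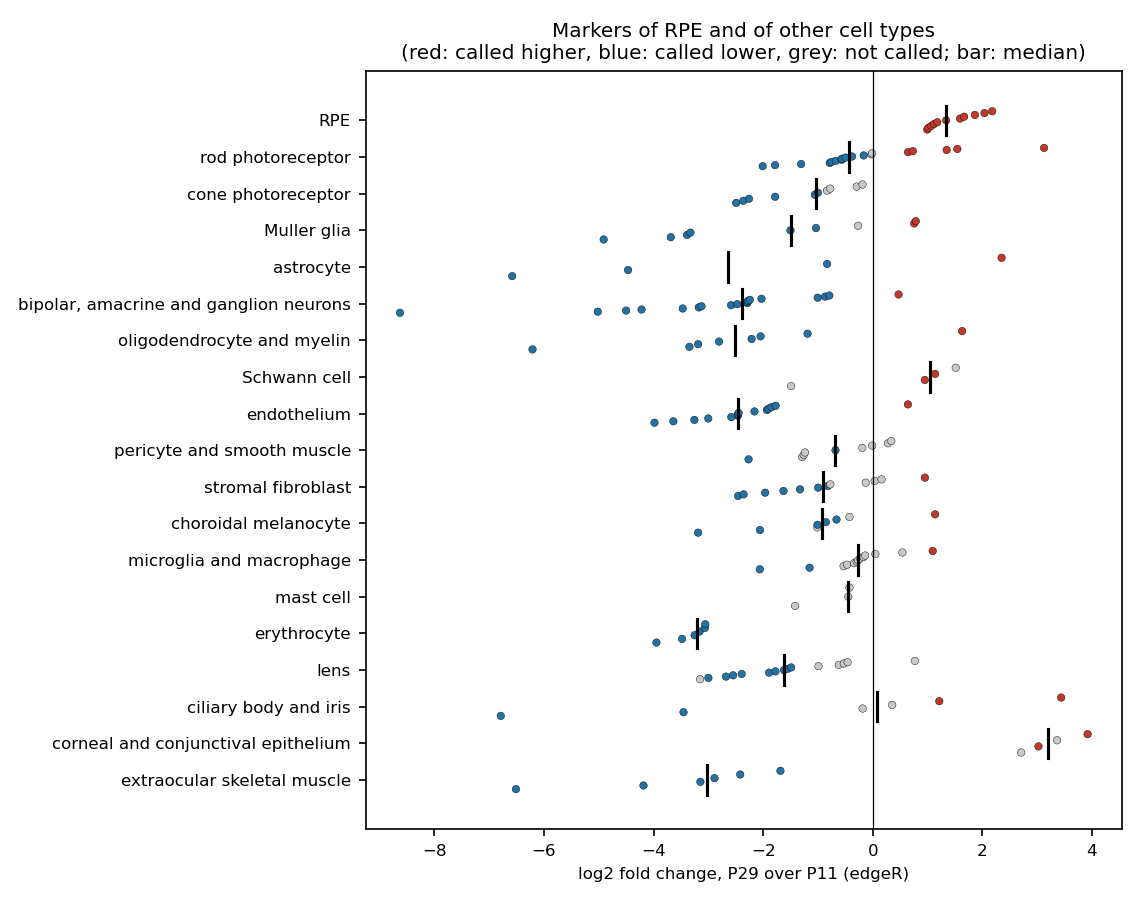
Each point is 1 tested marker placed by its log2 fold change of P29 over P11 in control RPE, in rows by cell type, red where called higher, blue where called lower and grey where not called, with the row median as a black bar. All 11 RPE markers lie to the right of 0 and all 6 erythrocyte markers to the left of -3, while rod markers spread to both sides.

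The same libraries at P29 were also the reference for controls at 3 months (3M), so the later values are set beside the earlier change without a comparison of the 2 contrasts. Between P29 and 3M 429 genes (3.49%) rose and 1046 (8.5%) fell. Rgr was at 10087 CPM ± 286 at 3M, a further log2 fold change of 0.87 (SE 0.045, adjusted p = 1.31e-31) over P29, and Rpe65 was at 8568 CPM ± 290.2, 0.16 (SE 0.043, adjusted p = 0.00534). Pmel was at 91.6 CPM ± 12.4, -1.84 (SE 0.086, adjusted p = 8.84e-33), and Dct at 2666 CPM ± 135, -0.82 (SE 0.048, adjusted p = 2.80e-28). Mt1 was at 9256 CPM ± 305, 0.79 (SE 0.051, adjusted p = 6.89e-24), Meg3 at 23.4 CPM ± 9.47, -2.35 (SE 0.16, adjusted p = 9.25e-14), and Col1a2 at 202 CPM ± 109.7, -1.67 (SE 0.22, adjusted p = 1.33e-05). Other genes that rose between P11 and P29 fell after it: Fosb was at 129 CPM ± 12.8, -2.03 (SE 0.11, adjusted p = 5.08e-31), Klf4 at 74.5 CPM ± 19.1, -1.95 (SE 0.13, adjusted p = 5.65e-24), Ifit3 at 31.7 CPM ± 6.22, -1.35 (SE 0.22, adjusted p = 6.33e-07), and Gnat1 at 502 CPM ± 35.3, -1.6 (SE 0.066, adjusted p = 1.32e-39). Egr1 and Jun were at 595 CPM ± 12.2 and 371 CPM ± 21.5 at 3M, between their P11 and P29 levels, and Bhlhe40 was at 144 CPM ± 20.1, -0.13 (SE 0.14, adjusted p = 0.682), with no called change from P29.

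**Figure D5:**
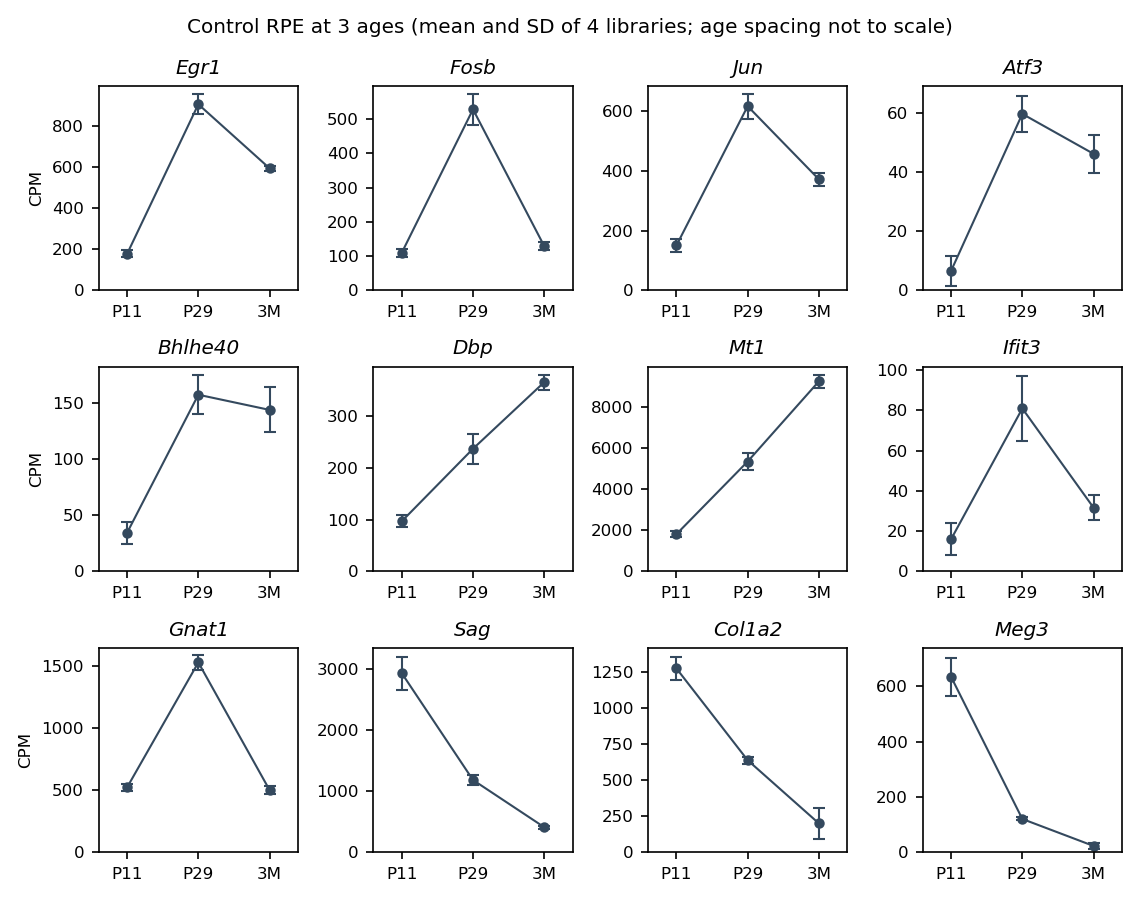
Each panel gives the mean and SD of 4 control libraries for 1 gene at P11, P29 and 3M, with CPM on a vertical axis from 0 and the ages spaced evenly and not to scale. Fosb, Ifit3 and Gnat1 are highest at P29, the means of Dbp and Mt1 are higher at each step, and those of Sag, Col1a2 and Meg3 lower.

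In mutants the change from P11 to P29 differed from that in controls for 323 genes (2.63% of those tested, edgeR interaction contrast). The log2 fold change of Tyrp1 was -1.01 in controls and -0.16 in mutants, a difference of 0.84 (SE 0.13, adjusted p = 1.00e-06), and that of Pmel was -2.71 and -1.90, a difference of 0.81 (SE 0.11, adjusted p = 5.54e-08). Elastin had -3.21 in controls and -1.06 in mutants, a difference of 2.16 (SE 0.28, adjusted p = 1.64e-08). Rgr had 2.04 in controls and 1.77 in mutants, a difference of -0.27 (SE 0.065, adjusted p = 0.00539), and Nr4a1 2.15 and 3.92, a difference of 1.78 (SE 0.26, adjusted p = 5.42e-07). For Rpe65 the difference was -0.021 (SE 0.061, adjusted p = 0.935) and for Ttr -0.096 (SE 0.048, adjusted p = 0.36), neither of which passed.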

How the data were processed

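RNA of isolated mouse RPE was read with a 3′ tag kit from 100 ng of total RNA, per the labels' protocols, as single-end reads. The deposited values are raw counts of reads per Ensembl gene, 1 table per library, with alignment by STAR to mm10 per the submitters' processing notes. The counting tool, annotation and use of strand: not given in the sources used here.

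From these counts, the 5 entries for unassigned reads were left out of totals and tests, and 31053 gene identifiers remained, of which 30934 had a symbol in GENCODE on GRCm38. All 24 libraries (6 groups of 4) were fitted together with edgeR 4.0.16 in R 4.3.3 (filterByExpr, TMM factors, robust quasi-likelihood F-test), with Benjamini-Hochberg adjustment over 12303 genes and calls at an adjusted p under 0.05. CPM values used the TMM-scaled totals. The script was tested on simulated data. Zero and low counts were given exact 95% Poisson intervals or a floor of 3 counts, which cover counting error only. The 300-base promoters are those of RefSeq. An overlap at the 3′ end means another gene within the last 500 bases.

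Genes were named by a rule, which took the 15 largest rises and falls and the 10 smallest p among called genes. For all of these it required that the groups did not overlap and that 1 of them averaged 20 CPM or more. The rule also took up to 4 called members with the smallest p of each list, and a few set genes such as Ift20 and Rpe65. A few genes it names are not reported here. Genes outside it were picked after their values were seen. The members and the gene lists (29 functional and 20 of cell types) were chosen with earlier results of these data known. Every pair of libraries within a group differed by more than sampling noise in a chi-square test over genes. That test cannot tell separate animals or pools from separate preparations of 1 RNA sample. Each library was counted as 1 replicate because the labels call it so. Alternatives were DESeq2 1.42.0, limma 3.58.1 with voom, other scalings and filters, fewer libraries, a replicate block, thinned counts and a test against a 1.5-fold change.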

Additional observations from a re-analysis of the deposited data

Results flagged for a closer look

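Of 488 groups of 4 libraries (each named gene at each age), 34 held a library whose gap to its nearest neighbour took up more of the range than the 95% critical value of Dixon's test allows. For normally distributed values chance alone flags about 1 in 20 groups. That rate does not hold near 0 counts, since a group with counts in only 1 library is always flagged. This was so for Ciart, Cxcl2 and Krt15 at P11 and for Avp, Isl1, Mag, Cd55 and Zic1 at P29. In P11 replicate 1 the highest value stood apart for Slc9a3r1 (126 CPM), Wnt5a (36.1 CPM), Mylpf (31.1 CPM) and Krt15 (0.334 CPM). In P11 replicate 2 the highest value stood apart for Grn (179.9 CPM), Slc6a9 (419 CPM), Zic1 (12.6 CPM), Aldh3a1 (4.81 CPM) and Hist1h1c (109 CPM). In P11 replicate 3 the highest value stood apart for Ciart (1.27 CPM). In P11 replicate 4 the highest value stood apart for Bmp4 (236 CPM), Cxcl2 (2.66 CPM), Sertad1 (11.2 CPM), Nkd1 (14.3 CPM) and Malat1 (13010.0 CPM). In P11 replicate 1 the lowest value stood apart for Sod1 (422 CPM). In P11 replicate 3 the lowest value stood apart for Otx2 (710.0 CPM) and Fmod (25.3 CPM). In P11 replicate 4 the lowest value stood apart for Srebf1 (29.8 CPM) and Rbp4 (0 CPM). In P29 replicate 1 the highest value stood apart for Col18a1 (326 CPM), Avp (0.357 CPM), Cd55 (1.07 CPM) and Zic1 (2.14 CPM). In P29 replicate 2 the highest value stood apart for Isl1 (4.78 CPM) and Egr3 (4.78 CPM). In P29 replicate 3 the highest value stood apart for Slc24a5 (336 CPM) and Mag (1.48 CPM). In P29 replicate 4 the highest value stood apart for Cldn2 (82.7 CPM). In P29 replicate 2 the lowest value stood apart for Jam3 (86.5 CPM) and Sag (1069 CPM). In P29 replicate 3 the lowest value stood apart for Ccnd1 (479 CPM), Rdh5 (3406 CPM) and Cry1 (15.1 CPM).

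For 45 named genes the change from P11 to P29 differed between mutants and controls by the interaction contrast of edgeR, with adjusted p from 4.64e-27 to 0.0437. The values that follow are the log2 fold change in mutants minus that in controls. Among pigment genes the difference was 0.81 for Pmel, 0.84 for Tyrp1, 1.04 for Mlana and 0.48 for Gpnmb. Among RPE function, transport and metal-binding genes the difference was -0.27 for Rgr, -0.57 for Six3, 2.02 for Aqp1, -2.28 for Cyp27a1, 0.49 for Trf, 0.27 for Mt1 and 1.6 for Srebf1. Among matrix, junction and secreted genes the difference was 2.16 for Eln, 1.45 for Col4a1, 4.26 for Igfbp3, 1.09 for Igfbp2, 1.61 for Nog, 1.23 for Id1, 1.14 for Cdh3, 0.49 for Gja1 and 5.42 for Igdcc3. Among immediate early genes the difference was 0.85 for Fosb, 1.77 for Nr4a1, 1.51 for Klf2 and 1.80 for Atf3. Among clock genes the difference was -0.52 for Rorb, -0.50 for Tef and -4.19 for Ciart. Among photoreceptor, neuronal and glial genes the difference was 0.34 for Sag, 0.44 for Gnat1, -0.46 for Slc24a1, 5.55 for Gfap, 2.41 for Cacng4 and 2.49 for Mbp. Among vessel and blood genes the difference was 2.78 for Ackr1, 1.35 for Flt1, 0.92 for Rgs5, 0.37 for Hbb-bs and 0.46 for Hbb-bt. Among lens genes the difference was 6.94 for Cryba1 and 6.49 for Crygd. Among mitochondrial, ribosomal and noncoding genes the difference was 0.21 for mt-Nd1, 0.46 for Rpl32, 0.72 for Rpl27, -0.98 for Malat1 and 0.49 for Gm42418. The log2 fold changes of the lens genes were below 0 in controls and above 0 in mutants, Cryba1 with -2.39 and 4.55 and Crygd with -2.55 and 3.94.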

How the results depend on the processing

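The counts of 2026 higher and 1917 lower genes stayed within 1.5 times under every alternative but the test against a 1.5-fold change, which called 769 and 999. Leaving out 1 library at a time gave 1893 to 2022 higher and 1730 to 1826 lower genes, and 239 to 419 genes for the contrast between mutants and controls. The higher genes were 51.4% of calls, against 45% with median-of-ratios factors in edgeR and 44.1% with DESeq2, both of which shifted the median log2 fold change by -0.070. An alternative chosen after seeing the data, with Gm42418, mitochondrial and erythrocyte genes taken out of the totals, gave 2018 and 1937. With the replicate number as a block the counts were 2039 and 1859. The labels do not say that a number marks a shared litter or day, and same-numbered libraries of the ages did not deviate together (correlations 0.027, 0.014, -0.0048 and 0.034 over 6413 genes), so the pairing is by number alone. Of 244 genes named in the text, 233 were called and 217 of these kept their call and direction in every fit without 1 library, while 56 lost the call in the test against a 1.5-fold change. Ift20, not called in any fit, was -0.0003024 with DESeq2, -0.0019 with median-of-ratios factors, and -0.0012 without P29 replicate 3, with a range of -0.10 (without P11 replicate 3) to 0.30 (without P11 replicate 4). Bco1, also not called, ranged from -0.021 without P11 replicate 4 to 1.12 without P11 replicate 3. The cause of these differences was not tested. List counts moved by over 1.5 times in 45 of 98 cases in the 1.5-fold test and in at most 7 in any other fit. Depth limited genes near 3 counts, which is 1.04 to 1.98 CPM.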

Other observations

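Some of the largest shifts lay outside the lists and were picked out after their values were seen. Ptgds, which encodes the prostaglandin D synthase and lipid carrier of the interphotoreceptor space, gained more CPM than any other gene, from 5515 CPM ± 389 at P11 to 30852 CPM ± 959 at P29 (SD, n = 4, log2 fold change 2.48, SE 0.046, edgeR adjusted p = 6.18e-41). It stood at 43933 CPM in controls at 3M. Cst3, the secreted protease inhibitor cystatin C, rose from 7255 CPM ± 744 to 12758 CPM ± 975 (log2 fold change 0.81, SE 0.080). The nuclear noncoding RNA Malat1 rose from 10489 CPM ± 1683 to 23064 CPM ± 2732 (log2 fold change 1.14, SE 0.098). Oxt, the oxytocin precursor, had 79 counts over the P11 libraries and 0 at P29, at least 32.6-fold lower over the floor of the group, beside the fall of Avp.

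Of 16 tested genes of the histone clusters 10 rose, 2 fell and 4 were not called, with a median log2 fold change of 1.39. Replication-dependent histone messages end in a stem-loop and are read by a poly(A)-primed kit only where they carry a tail. Hist1h4i, a histone H4 gene, rose from 11.8 CPM ± 3.55 to 74.9 CPM ± 11.7 (log2 fold change 2.62, SE 0.20) and Hist1h4h from 6.55 CPM ± 6.82 to 36.4 CPM ± 6.99 (2.57, SE 0.48). Hist1h2bc rose from 77.5 CPM ± 10.3 to 195 CPM ± 9.52 (1.34, SE 0.12) and Hist3h2a from 73.3 CPM ± 18.3 to 158 CPM ± 16.7 (1.1, SE 0.13). The linker histone gene Hist1h1c rose from 82.7 CPM ± 17.7 to 161 CPM ± 16.2 (0.97, SE 0.13). The genes that fell were Hist1h1e, from 36.5 CPM ± 8.32 to 12.4 CPM ± 4.27 (-1.54, SE 0.36), and Hist3h2ba, from 20.1 CPM ± 7.29 to 6.42 CPM ± 2.34 (-1.64, SE 0.45). Copies of a histone type are near identical, so the split of counts between them is uncertain.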
